A study of Mus musculus with 60 samples.

Results

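The regions described here are the flanks of lamina-associated domains, the stretches of chromosome that begin where a lamin B1 domain ends. They were chosen by the domain calls alone: an autosomal bin of 37 kb on build NCBIM37 counted as flank when it lay in no domain of wild-type (WT) or R6/1 hippocampus and its near edge was within 370 kb of a border of a WT domain. Of 66831 autosomal bins, 2580 (3.86%) met the rule. They lay along 257 of the 265 borders of 134 autosomal WT domains. Of these bins, 100 held no sequenced base, 63 of them in the assembly gaps at chromosome starts, and the other 2480 covered 90.8 Mb. A gene was assigned to the bin that holds its transcription start. The flank bins held the starts of 1083 of 21073 matched autosomal genes, 1013 of them protein-coding.

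Hippocampal tissue was taken from 30-week-old mice of a mixed CBA and C57BL/6 background, either WT or R6/1. R6/1 mice carry, under the human huntingtin promoter, a transgene made of exon 1 of human huntingtin with a long CAG repeat, beside their own intact huntingtin genes, and are used as a model of Huntington's disease. RNA-seq covered 9 independent biological replicates per genotype, and the library totals ran from 12299417 to 16736587 reads on genes (12299417 to 16456970 in WT, 13260328 to 16736587 in R6/1). Lamin B1 ChIP-seq was made from 3 biological replicates of each genotype (5 pooled mice in each), and 1 domain list per genotype was used, so border positions carry no replicate spread.

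The nuclear lamina is a mesh of lamin proteins under the inner nuclear membrane. Long stretches of chromatin touch it, hold few genes and are transcribed little, and their ends often coincide with active promoters, CpG islands or sites bound by CTCF, a zinc-finger protein that marks the limits of chromatin domains. In many cell types the chromatin just outside a domain is open and transcribed. Clusters of olfactory receptor genes (Olfr) and vomeronasal receptor genes (Vmn), which are silent outside sensory neurons, are typical residents of lamina domains.

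Distance was counted in 11 steps of 37 kb, the step at the border being the bin that touches it. Letters close to stable borders are shown first. The following 40-base stretches are CTCF core consensus matches close to 3 borders that lay at the same position in both genotypes, with the matched 12 letters in capitals; they lie 1.25, 2.96 and 8.67 kb outside their borders. A match is a run of letters, not a bound site.
chr12:99420226-99420265, minus strand: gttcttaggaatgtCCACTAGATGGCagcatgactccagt
chr7:55983938-55983977, minus strand: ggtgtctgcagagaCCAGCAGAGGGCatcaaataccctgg
chr7:116077652-116077691, minus strand: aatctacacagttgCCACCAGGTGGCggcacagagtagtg
The last match lies just upstream of the start of Eif3f, at 116077931 on chromosome 7.

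Across all flank sequence the core consensus, searched on both strands, occurred 6.33 times per Mb, against 2.93 per Mb in the domain margin, the mirror-image bins within 370 kb inside the WT border, and 7.05 per Mb in distant sequence, which lies in no domain and farther than 370 kb from a WT border. The step at the border held 59 matches, or 8.25 per Mb (95% Poisson interval 6.28 to 10.6, counting error only), and steps 2 to 11 held 516, or 6.17 per Mb. The bin just inside the border held 4.49 per Mb (3.26 to 6.02). Of the 201 bins at the border, 50 (24.9%) held a match, against 19.1% of all sequenced flank bins and 15.9% of all sequenced autosomal bins. The step at the border was denser than steps 2 to 11 on 11 of 19 chromosomes and less dense on 8. GC content climbed with distance, from 40.9% just inside the border and 42.0% just outside it to 43.5% at step 8, and reached 44.2% in distant sequence. CpG dinucleotides went from 7.32 per kb just inside to 9.04 just outside and 10.3 at step 8. Gene starts were denser outside as well: 8.16 matched genes per Mb in the bin just inside, 12.7 per Mb in the bin just outside and 11.9 per Mb over the whole flank.

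**Figure D1:**
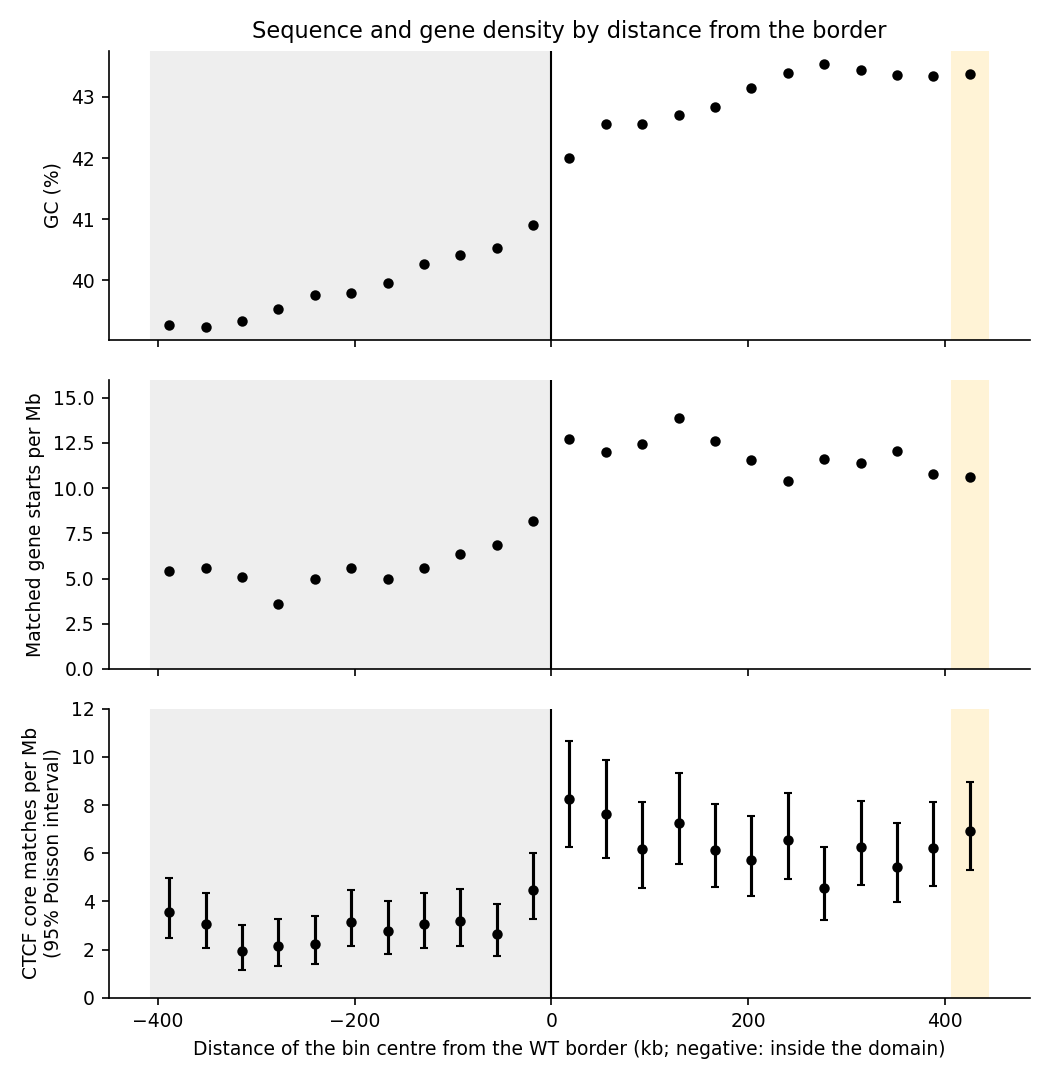
GC content, matched gene starts per Mb and CTCF core matches per Mb (points; bars are 95% Poisson intervals) by distance of the bin centre from the WT border, with the domain side in grey and the first bin past the 370 kb limit in yellow. All 3 measures were lower on the domain side; gene starts went from 8.16 to 12.7 per Mb across the border.

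Promoters of 5 flank genes are shown because these genes carry the results on expression: Plin4 and Olfm2 had the largest increases in R6/1 by the rule given in the methods, Gm2115 and Bok the largest decreases, and Rps23 was among the most expressed genes of the step at the border. Each line holds the 200 bases before the annotated start in the direction of transcription, read from NCBIM37, with matches to the GC box (GGGCGG), the CCAAT box (CCAAT) and the TATA box (TATAAA) in capitals on either strand.
Plin4, chr17:56249226-56249425, minus strand: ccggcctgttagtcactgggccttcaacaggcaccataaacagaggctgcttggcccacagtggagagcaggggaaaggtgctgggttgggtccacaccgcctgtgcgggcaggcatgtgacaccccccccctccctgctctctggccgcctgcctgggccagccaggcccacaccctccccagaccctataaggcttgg
Olfm2, chr9:20532674-20532873, minus strand: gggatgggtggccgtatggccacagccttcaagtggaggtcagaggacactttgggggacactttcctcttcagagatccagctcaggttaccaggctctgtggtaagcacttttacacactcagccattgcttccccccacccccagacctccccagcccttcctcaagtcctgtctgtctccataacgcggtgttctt
Gm2115, chr7:91677285-91677484, plus strand: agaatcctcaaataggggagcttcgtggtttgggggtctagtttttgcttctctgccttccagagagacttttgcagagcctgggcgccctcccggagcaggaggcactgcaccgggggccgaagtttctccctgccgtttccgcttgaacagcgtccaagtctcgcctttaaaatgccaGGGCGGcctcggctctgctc
Bok, chr1:95582071-95582270, plus strand: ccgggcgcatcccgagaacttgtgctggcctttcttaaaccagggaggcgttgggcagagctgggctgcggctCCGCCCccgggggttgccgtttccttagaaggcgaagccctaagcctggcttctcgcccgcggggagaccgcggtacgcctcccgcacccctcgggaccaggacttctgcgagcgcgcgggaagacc
Rps23, chr13:91062527-91062726, plus strand: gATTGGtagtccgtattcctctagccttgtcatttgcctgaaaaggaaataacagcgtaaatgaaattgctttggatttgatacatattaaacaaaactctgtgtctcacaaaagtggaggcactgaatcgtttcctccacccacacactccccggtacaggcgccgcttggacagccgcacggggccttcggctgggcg
The Gm2115 and Bok stretches each held a GC box and that of Rps23 a CCAAT box. Plin4 and Olfm2 held none of these letters in this window. No matches overlapped. Among all 1083 flank promoters 43.7% held a GC box, 35.2% a CCAAT box and 7.4% a TATA box, against 39.1%, 30.5% and 9.7% of all 21073 autosomal promoters. Of the promoters of the 610 genes in the domain margin, 9.8% held a GC box, 32.0% a CCAAT box and 21.5% a TATA box. The median flank promoter had 9 CpG dinucleotides and a GC content of 57%, the median margin promoter 1 CpG and 41%. The margin held 221 Olfr and 44 Vmn genes, the flank 11 and 2. Promoters were not counted without them, so their part in this contrast was not tested.

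Expression was given as RPKM, reads scaled for transcript length and library depth, and summarised as the mean of log2(RPKM + 0.5) over all genes of a step or as the share of genes at 0.5 RPKM or more. In WT, 71.3% ± 0.65 of flank genes were at 0.5 RPKM or more (SD over 9 libraries; lowest library 70.8%, median 71.1%, highest 72.8%). In the domain margin the share was 21.0% ± 0.53 of 610 genes, and no margin library came near the flank. The margin does not stand for whole domains. More than 370 kb inside the border the WT share was 43.5% ± 0.39 of 3182 genes. Without Olfr and Vmn genes it was 57.8% ± 0.53 of 2387 there. Mean log2 expression of flank genes was 2.13 ± 0.0098 in WT and 2.13 ± 0.0061 in R6/1. Flank minus margin was 2.34 ± 0.0097 on the log2 scale in WT and 2.35 ± 0.0092 in R6/1, so the contrast across the border was of like size in both genotypes. Flank genes were also slightly above the 16006 genes of distant sequence, by 0.13 ± 0.013 in WT and 0.14 ± 0.0093 in R6/1, with 68.9% ± 0.49 of distant WT genes at 0.5 RPKM or more. Genes of a step are not replicates of each other, and the SD describes libraries only.

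Over all borders pooled, the largest difference between neighbouring steps was at the border itself. In the 37 kb just inside the border 27.9% ± 2.17 of 80 genes were at 0.5 RPKM or more in WT, and in the 37 kb just outside it 65.3% ± 0.58 of 91 genes. In R6/1 the same shares were 29.0% ± 1.04 and 67.2% ± 1.02. Mean log2 expression went from 0.10 to 1.87 across these neighbouring bins in WT and from 0.08 to 1.85 in R6/1, differences of 1.76 ± 0.035 and 1.77 ± 0.027. The median gene of the outer bin had 2.63 (WT) and 2.81 RPKM (R6/1), that of the inner bin 0.039 and 0.032 RPKM. These 2 sides do not cover the same borders. The inner step held 265 bins and the outer step 201, because outer bins that R6/1 covers are left out. Of 192 genes in bins held by R6/1 alone, 22.8% ± 1.03 were at 0.5 RPKM or more in WT. How much this filter widened the difference was not tested. At borders in the same position in both genotypes, the WT share was 9.8% of 127 genes in the whole margin, Olfr and Vmn genes included. It was 76.6% ± 1.17 of 200 genes in the whole flank and 68.7% ± 1.95 of 27 genes in the outer step. The bin just inside these borders was not counted apart.

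Beyond the bin at the border the profile was uneven and had no steady slope. In WT the share at 0.5 RPKM or more was 71.7% at step 2, 66.7% at step 3, 69.6% at step 4, 73.8% at step 5, 74.7% at step 6, 73.8% at step 7, 76.3% at step 8, 72.6% at step 9, 70.4% at step 10 and 69.8% at step 11. R6/1 gave 72.0%, 66.0%, 69.5%, 72.9%, 76.0%, 74.5%, 77.4%, 73.1%, 71.5% and 72.5% at the same steps. Step 12, just past the 370 kb limit, held 90 genes at 64.7% in WT and 63.7% in R6/1, lower than any step inside the limit. The highest step was step 8 in both genotypes (mean log2 2.55 in WT and 2.51 in R6/1), and the lowest mean log2 was at step 3 (1.74 and 1.72). From the step at the border to step 11 mean log2 expression differed by 0.19 ± 0.025 in WT (higher at step 11). This last difference depended on where a gene is placed: assigned by the middle of its span instead of its start, it was -0.11 ± 0.019, and counted from R6/1 borders -0.38 ± 0.037.

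**Figure D2:**
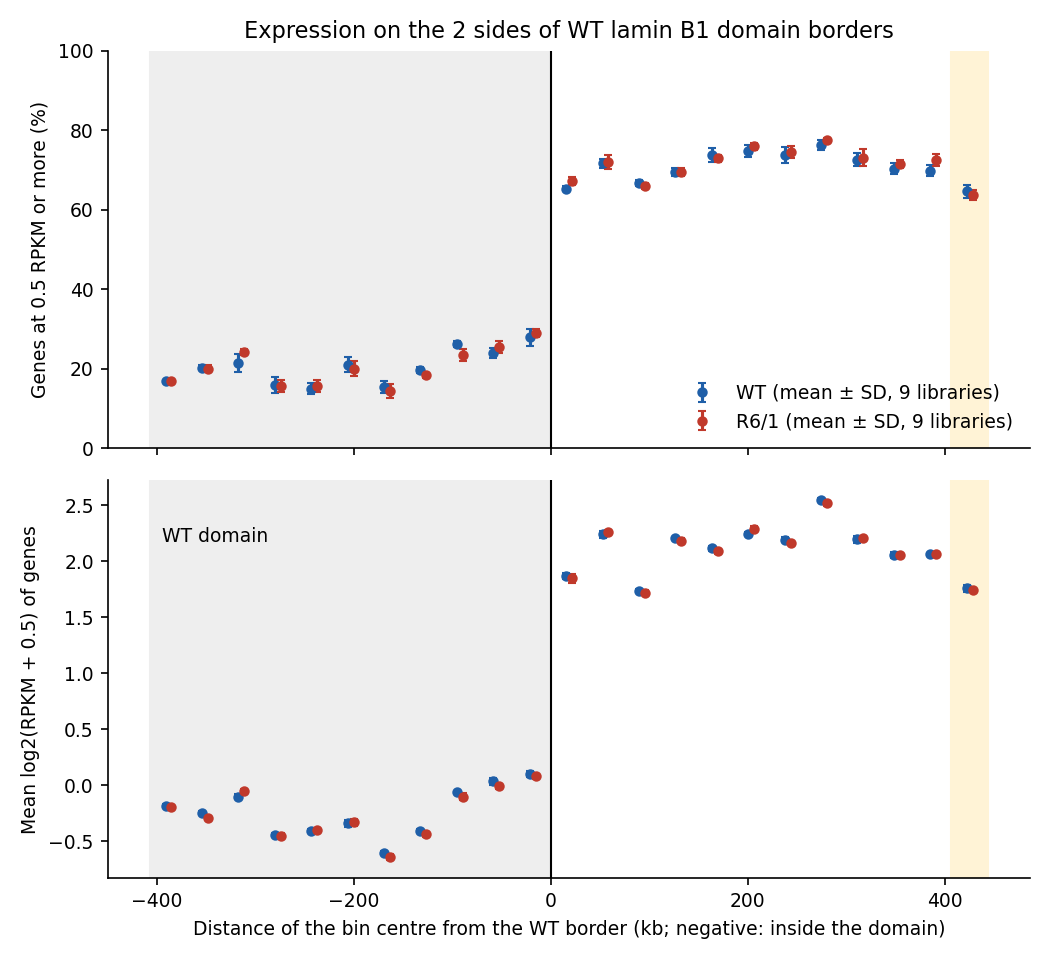
Share of genes at 0.5 RPKM or more (top) and mean log2(RPKM + 0.5) of all matched genes (bottom) by distance of the bin centre from the WT border, for WT (blue) and R6/1 (red); points are means and bars SDs over 9 libraries each. The domain side is grey and the first bin past the limit yellow. Across the border the WT share went from 27.9% to 65.3%, with bins that R6/1 covers left out on the outer side.

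Receptor clusters made up a large part of the silent side. Olfr and Vmn genes were 265 of the 610 margin genes and 13 of the 1083 flank genes. With them left out, an alternative chosen after seeing the data, 37.1% ± 0.93 of 345 margin genes and 72.2% ± 0.65 of flank genes were at 0.5 RPKM or more in WT. In the touching bins the shares were then 37.9% ± 2.94 of 59 genes inside and 66.2% ± 0.38 of 89 genes outside. The contrast was smaller without the clusters. Library SDs do not measure how it varied over genes or borders.

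The contrast was also read border by border and chromosome by chromosome. At 129 borders with matched genes on both sides, mean log2 expression in WT was higher outside at 99, with a median difference of 2.07; in R6/1 it was higher outside at 101, median 2.08. Without Olfr and Vmn genes it was higher outside at 86 of 118 borders in WT (median 1.86) and at 88 in R6/1 (1.98). Few borders had genes in both touching bins: outside was higher at 15 of 26 in WT (median difference 0.49) and at 16 of 26 in R6/1 (0.76). Without the receptor genes these were 11 of 22 (median 0.041) and 12 of 22 (0.25). The step seen over all genes at the border was therefore not a step at each border. All 19 chromosomes had higher mean log2 expression in the flank than in the margin, by 1.40 to 3.48 in WT, and by 0.54 to 3.10 without Olfr and Vmn genes.

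The direction of transcription relative to the domain was counted in each step. At the border 55 genes were transcribed away from the domain and 36 toward it, at step 2 the counts were 52 and 39, at step 3 they were 46 and 55, at step 10 they were 63 and 39, and over the whole flank 566 and 517. An excess of genes pointing away was thus not particular to the border, and no test was made. Of the 16 chromosomes with genes at the border, 10 had mostly genes pointing away, 3 mostly genes pointing toward and 3 equal numbers. Only 28 flank genes ran across their border into the domain; 20 of them (71.4%) were at 0.5 RPKM or more in WT, as were 753 of the 1055 others (71.4%).

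Borders moved between the genotypes. Of 265 WT borders, 133 (50.2%) were drawn back in R6/1, so that the WT domain reached farther out; the shift ran from 37 to 5476 kb. A further 64 (24.2%) were extended outward by 37 to 1887 kb, median 74 kb, 55 (20.8%) lay at the same position, and 13 (4.91%) belonged to domains with no R6/1 counterpart. Extended borders have no flank bin at step 1, since R6/1 covers it, which leaves 201 bins there. With 1 list per genotype these shifts have no replicate check.

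Flank genes were mostly expressed next to borders of every kind. Next to kept borders 76.6% ± 1.17 of 200 flank genes were at 0.5 RPKM or more in WT and 78.1% ± 0.49 in R6/1; next to extended borders the WT share was 73.4% ± 0.60 of 247, next to drawn back borders 68.9% ± 0.70 of 607, and next to lost borders 69.3% ± 2.70 of 29. Inside, in WT, 9.8% of 127 margin genes were at 0.5 RPKM or more at kept borders, 12.7% of 199 at extended borders and 31.1% of 275 at drawn back borders, and 55.6% of 9 at lost borders. At drawn back borders the margin fell into a strip held by WT alone, where 46.4% ± 1.02 of 139 genes were at 0.5 RPKM or more in WT, and a strip inside both domains, with 15.4% ± 0.78 of 136. In R6/1, which had given up the first strip, its share was 46.0% ± 0.43. Receptor genes enter this difference. Over all borders the WT shares were 47.0% ± 0.96 of 148 genes in WT-only margin and 12.7% ± 0.54 of 462 in margin of both domains. Without Olfr and Vmn genes they were 54.3% ± 1.11 of 128 and 27.0% ± 1.15 of 217. Measured from R6/1 borders instead, the bins of no domain that touch an R6/1 border gave 72.1% ± 0.73 in WT and 72.1% ± 1.29 in R6/1 over 82 genes. The WT-only bins touching an R6/1 border gave 72.2% ± 1.39 and 71.5% ± 1.14 over 76 genes. These 163 WT-only bins were taken at any R6/1 border, so they are not only strips at drawn back borders.

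R6/1 was next compared with WT gene by gene with limma over all 14446 genes at a mean of 0.5 RPKM or more, of which 48.3% were called at an adjusted p under 0.05 (24.8% higher and 23.5% lower in R6/1). Of the 1083 flank genes 778 were tested; 305 were below the filter, 41 of them at 0 in all 18 libraries. Among the tested flank genes 191 were higher in R6/1 (24.6%) and 179 lower (23.0%), shares next to the background, and their median log2 fold change was 0.017 against 0.0036 over all tested genes. With libraries scaled by their own read totals the split was 291 higher and 127 lower in the flank and 5110 higher and 2526 lower over all genes, so the balance of directions rests on the scaling in both. In bulk tissue fewer cells of a type and less RNA per cell cannot be told apart, and this holds for each genotype difference below.

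Most called flank genes changed little. Of the 370 called, 321 (86.8%) differed by less than 0.5 on the log2 scale, against 82.7% of all called genes, and 5 (1.35%) differed by 1 or more, against 2.65% of all called genes. WT and R6/1 libraries did not overlap for 80 tested flank genes (10.3%; 11.9% of all tested genes), and 77 of these were also called with a mean of at least 1 RPKM (11.3% of all tested genes met that rule). By distance, between 41.7% (step 10) and 53.1% (step 4) of a step's tested genes were called, and at the border 12 were higher and 16 lower of 60. By border, 41 genes were higher and 38 lower of 154 next to kept borders, 41 and 37 of 182 next to extended ones, 106 and 99 of 420 next to drawn back ones and 3 and 5 of 22 next to lost ones. Flank genes passed 0.5 RPKM in WT alone in 11 cases and in R6/1 alone in 17; over all matched autosomal genes these counts were 301 and 197.

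**Figure D3:**
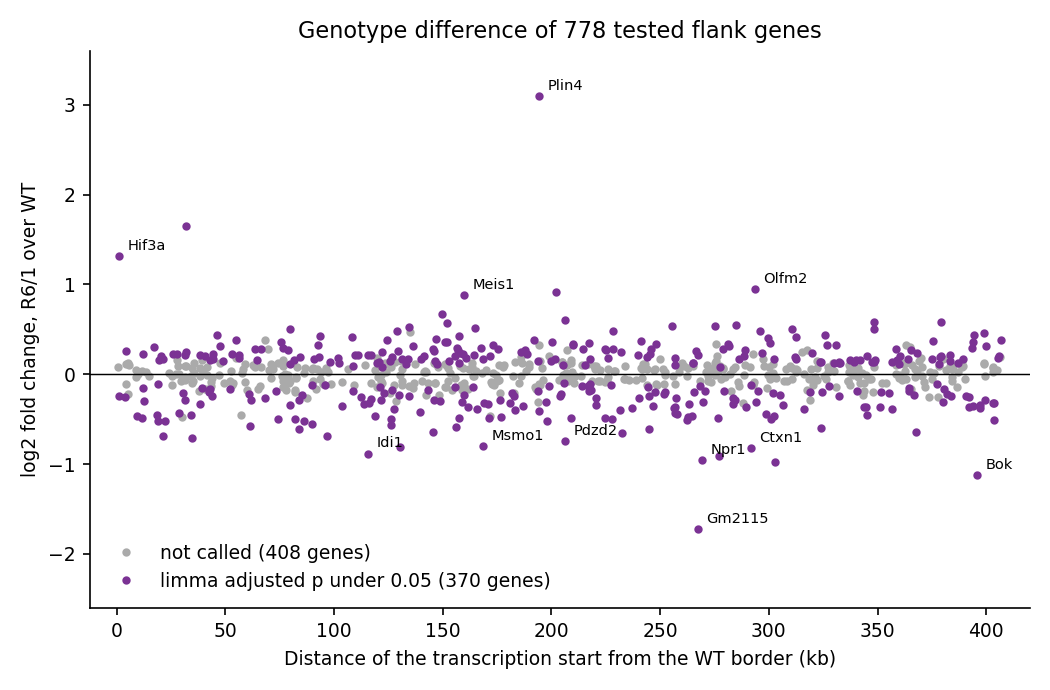
Log2 fold change (R6/1 over WT, on log2(RPKM + 0.5)) of each of the 778 tested flank genes against the distance of its start from the WT border; purple marks limma adjusted p under 0.05. Called genes of both directions lie at all distances, and 5 genes differ by 1 or more.

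Housekeeping genes led the bin at the border in level. Rps29, which encodes a protein of the small ribosomal subunit (chromosome 12, 70258709 to 70260173, minus strand), started 34.2 kb outside a border that R6/1 drew back. WT libraries held 448, 484 and 535 RPKM (lowest, median, highest) and R6/1 libraries 416, 489 and 533 RPKM, so the groups overlapped. Rps23, of the same subunit (chromosome 13, 91062727 to 91064329), stood 5.73 kb from its border with 167 ± 6.48 RPKM in WT and 180 ± 13.9 RPKM in R6/1. Processed pseudogenes of ribosomal protein genes are common, so how reads were shared among copies makes both levels uncertain. Rap1gds1, a regulator of small GTPases, was at 97.5 ± 9.86 and 99.4 ± 3.33 RPKM, 11.8 kb from a kept border on chromosome 3. Eif3f, a subunit of the translation initiation factor eIF3 with its start 8.93 kb from a kept border, was at 75.9 ± 7.03 and 78.6 ± 6.05 RPKM. Limma adjusted p was 0.782 for Rps29, 0.055 for Rps23, 0.592 for Rap1gds1 and 0.454 for Eif3f (n = 9 each). None of these 4 passed the test. The direction of Rps29 depended on the scaling: its log2 fold change was -0.02 as deposited and 0.14 after quantile normalization (limma adjusted p 0.0019), where it was called. Rps23 was called in several alternatives (limma adjusted p between 0.00042 and 0.109).

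Decreases in the bin at the border included Nr3c2 and Crim1. Nr3c2, the mineralocorticoid receptor (chromosome 8, 79423341 to 79768911, plus strand, start 21.3 kb outside a drawn back border), held 31.7, 37.9 and 49.4 RPKM in WT (lowest, median, highest) and 20.3, 24.8 and 27.2 RPKM in R6/1. Every R6/1 library was below every WT library; the log2 fold change was -0.69 (SE 0.081; limma adjusted p 8.77e-07). Crim1, a membrane protein that binds bone morphogenetic proteins (chromosome 17, 78599588 to 78775932, plus strand, 11.6 kb from a drawn back border), held 25.1, 26.2 and 29.5 RPKM in WT and 15.9, 19.2 and 20.7 RPKM in R6/1 (log2 fold change -0.49; limma adjusted p 2.53e-08). Both genes start beside the border and run away from the domain. Ddx18, a DEAD-box RNA helicase of ribosome assembly (chromosome 1, 123450412 to 123464566, minus strand), was the increase in this bin that met the naming rule: it rose from 8.30 ± 0.33 to 10.0 ± 0.61 RPKM, by 0.26 (SE 0.039; limma adjusted p 1.83e-05).

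Hif3a changed by 1 or more in this bin and fell outside the naming rule. It was chosen after its values were seen. Hif3a, a hypoxia-inducible factor subunit (chromosome 7, 17616856 to 17647776, minus strand), started 1.23 kb outside a drawn back border. WT libraries held 0.445, 0.709 and 1.55 RPKM and R6/1 libraries 0.613, 3.27 and 4.73 RPKM. R6/1 replicate 5, the lowest, lay within the WT range (log2 fold change 1.31, SE 0.23; limma adjusted p 0.000113).

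Farther out, Plin4 had the largest increase of all flank genes. Plin4 encodes perilipin 4, a coat protein of lipid droplets (chromosome 17, 56240014 to 56249225, minus strand), and started 194 kb from a border that R6/1 drew back by 37 kb. WT libraries held 0.441, 0.691 and 1.19 RPKM (lowest, median, highest) and R6/1 libraries 3.24, 9.80 and 17.9 RPKM. All R6/1 libraries were higher, and they differed among themselves more than the WT libraries did. The log2 fold change was 3.10 (SE 0.21; limma adjusted p 6.74e-10). R6/1 replicate 5 was the lowest R6/1 library for Plin4 and for Hif3a, and replicate 6 the highest for both.

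The other increases named by the rule were smaller. Olfm2, a secreted olfactomedin-domain protein (chromosome 9, 20472144 to 20532673, minus strand, 294 kb from a kept border), held 16.8, 23.3 and 39.5 RPKM in WT and 39.8, 47.7 and 57.0 RPKM in R6/1, a narrow gap between the groups, and rose by 0.95 (SE 0.12; limma adjusted p 2.85e-06). Meis1, a homeodomain transcription factor (chromosome 11, 18780433 to 18918961, minus strand, 160 kb from a kept border), held 0.282, 0.572 and 0.832 RPKM in WT and 1.12, 1.48 and 1.75 RPKM in R6/1, and rose by 0.88 (limma adjusted p 3.79e-07). Bag2, a co-chaperone of Hsp70, went from 4.41 ± 0.469 to 6.66 ± 0.768 RPKM, and Cited2, a transcriptional co-regulator that binds CBP and p300, from 14.1 ± 1.61 to 20.5 ± 1.11 RPKM. Tmem192, a lysosomal membrane protein, went from 10.9 ± 0.699 to 15.9 ± 1.69 RPKM, its lowest R6/1 library just above its highest WT library. The zinc-finger gene Zfp367 went from 7.41 ± 1.02 to 10.7 ± 0.916 RPKM and Flywch1, also a zinc-finger gene, from 71.5 ± 5.61 to 99.6 ± 5.16 RPKM. The log2 fold changes of these last 5 lay between 0.48 (Flywch1) and 0.54 (Bag2), with limma adjusted p from 3.26e-08 to 4.47e-06.

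Decreases named by the rule were led by a non-coding RNA. Gm2115, annotated as a long intergenic RNA (chromosome 7, 91677485 to 91726847, plus strand, 268 kb from a border that R6/1 extended), held 20.9, 26.2 and 31.5 RPKM in WT (lowest, median, highest) and 6.56, 7.42 and 9.57 RPKM in R6/1. The groups were far apart; the log2 fold change was -1.73 (SE 0.074; limma adjusted p 4.92e-13). Bok, a Bcl-2 family member on the list of CA3 pyramidal markers (chromosome 1, 95582271 to 95592339, plus strand, in the outermost step), held 22.4, 34.2 and 45.7 RPKM in WT and 9.97, 14.7 and 17.8 RPKM in R6/1 (log2 fold change -1.12, SE 0.13; limma adjusted p 5.63e-07). On the CA3 list as a whole 4 of 6 genes, Bok among them, were lower and 0 higher, where 23.5% of all tested genes were lower. The summed level of the list, Bok included, ran from 121 to 214 RPKM in WT and from 100 to 124 RPKM in R6/1. Its part in the Bok result was not tested.

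Idi1 (isopentenyl-diphosphate isomerase) and Msmo1 (methylsterol monooxygenase), both enzymes of cholesterol synthesis, lay in flanks of chromosomes 13 and 8. Idi1 held 16.4, 18.7 and 23.3 RPKM in WT and 8.98, 10.2 and 12.5 in R6/1 (log2 fold change -0.88; limma adjusted p 1.62e-09). Msmo1 held 35.3, 43.8 and 52.6 RPKM in WT and 20.7, 25.0 and 30.9 in R6/1 (-0.80; limma adjusted p 2.09e-07). Neither overlapped between genotypes. Ctxn1, which encodes the neuronal membrane protein cortexin 1 (chromosome 8, 4257648 to 4259274, minus strand), was the most abundant of the decreases: 186, 224 and 237 RPKM in WT against 115, 126 and 135 RPKM in R6/1 (-0.82; limma adjusted p 5.17e-11). Npr1, the receptor guanylyl cyclase for natriuretic peptides, ran from 1.21 to 2.99 RPKM in WT and from 0.536 to 0.758 RPKM in R6/1 (-0.95), and Pdzd2, a multi-PDZ protein, from 5.16 ± 0.866 to 2.85 ± 0.326 RPKM (-0.75), with limma adjusted p of 1.75e-06 and 5.64e-07. Plin4, Meis1, Flywch1, Npr1, Pdzd2, Nr3c2, Crim1 and P2ry12 overlap genes on the other strand, as do Mog, Itga7, Dnajc14, Tmem198b, Mpnd, Sh3gl1 and Hdgfrp2 below. The libraries were stranded, but whether counting used strand is not given in the sources used here, so reads of the partners may be included.

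**Figure D4:**
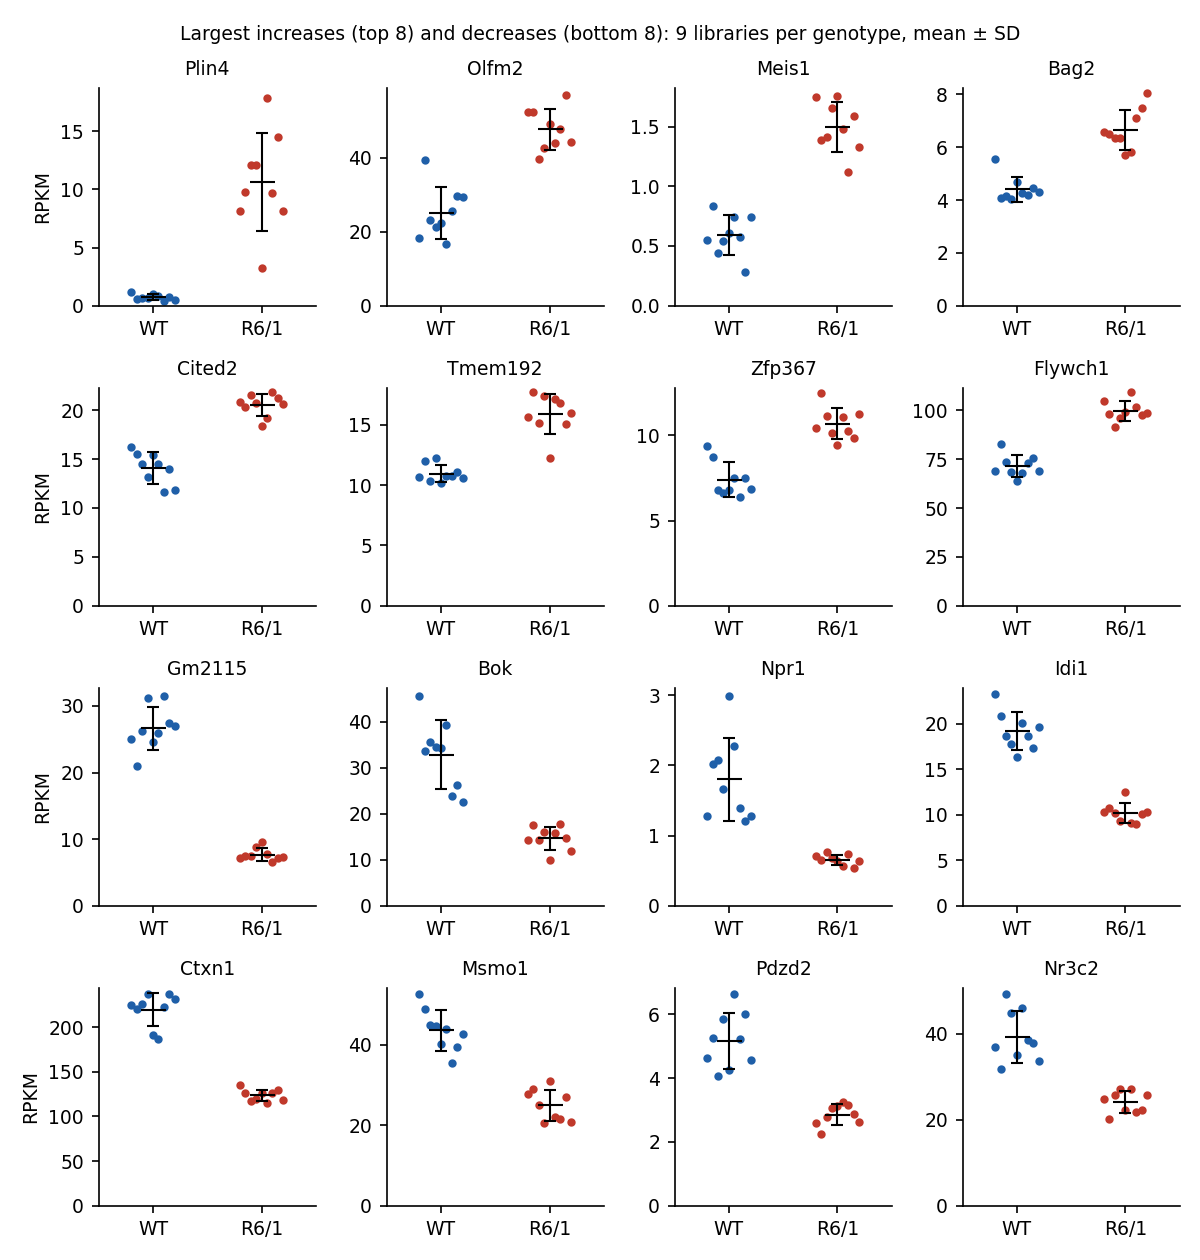
RPKM of the 8 largest increases (top 8 panels) and 8 largest decreases (bottom 8) among flank genes, each point a library of WT (blue) or R6/1 (red), with mean ± SD over 9 libraries in black; axes start at 0. No panel shows overlap between genotypes, which is part of the rule that chose these genes; Plin4 went from 0.722 to 10.6 RPKM.

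The pair of borders with most tested genes in their flank shows how neighbours behaved. On chromosome 10 the flank of the border at 128390000, which R6/1 drew back by 74 kb, held 21 matched genes, 19 of them tested, while none of the 17 genes in the margin reached 0.5 RPKM in WT. Of the tested flank genes 5 were higher in R6/1 and 5 lower, near the shares over all 14446 tested genes (24.8% higher and 23.5% lower). The 5 tested genes nearest to the border, within 61.2 kb of it, all had negative log2 fold changes. Itga7, an integrin subunit that binds laminin and the gene that crosses the border, went from 6.77 ± 1.24 to 4.51 ± 0.526 RPKM (-0.53; limma adjusted p 7.72e-05). Bloc1s1, a subunit of the complex that forms lysosome-related organelles, held 36.6 to 47.6 RPKM in WT and 27.5 to 34.7 RPKM in R6/1, without overlap (-0.43; limma adjusted p 1.24e-06). Rdh5, a retinol dehydrogenase that overlaps Bloc1s1 on the same strand, was not called (-0.47; limma adjusted p 0.153). The tetraspanin gene Cd63 was called (-0.24; limma adjusted p 0.0221), and Gdf11, a growth factor of the TGF-beta family, ran from 4.96 to 7.54 RPKM in WT and from 3.38 to 4.71 RPKM in R6/1 (-0.58; limma adjusted p 4.04e-06). All 5 genes called higher started 131 kb or farther out: Sarnp (0.16), Dnajc14 (0.11), Rab5b (0.11), Pa2g4 (0.13) and Zc3h10 (0.18), each by a small log2 fold change. The other called decrease, Tmem198b (-0.30), lay 149 kb out. Cd63 and Tmem198b lost their calls in at least 1 alternative processing (highest limma adjusted p 0.107 and 0.0752). The order along this flank was noticed after the values were seen, and over all borders 12 genes were higher and 16 lower at step 1, and 15 and 12 at step 2.

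On chromosome 17 the flank of the border at 56055000, the end of a WT domain that began at 51985001, held 25 matched genes, 19 of them tested; R6/1 drew this border back by 37 kb. Of the tested genes 5 were higher and 5 lower, again near the shares over all tested genes (24.8% and 23.5%). The perilipin genes Plin3, Plin4 and Plin5 lie in this flank, and the neighbours Plin4, Plin5 and Lrg1, with starts 194, 202 and 206 kb out, were all called higher. Plin5, a perilipin of oxidative tissues, held 0.125, 0.335 and 0.621 RPKM in WT and 0.763, 1.11 and 1.56 RPKM in R6/1, without overlap (0.91; limma adjusted p 2.07e-06). Lrg1, which encodes a secreted leucine-rich glycoprotein, held 0.256, 0.345 and 1.65 RPKM in WT and 0.410, 1.05 and 2.35 in R6/1, with overlap (0.60; limma adjusted p 0.0329). Plin3, 375 kb out, rose by 0.17 (limma adjusted p 0.0147), and Shd, an adaptor protein, by 0.39 (limma adjusted p 0.000157). Hdgfrp2, which meets the end of Plin4 on the other strand, went from 27.5 ± 2.74 to 24.7 ± 0.904 RPKM (-0.15; limma adjusted p 0.0188). Mpnd, Sh3gl1, Tnfaip8l1 and Mydgf were also called lower, by log2 fold changes from -0.12 to -0.35. Of the called decreases only Tnfaip8l1 kept its call under every alternative processing. The highest limma adjusted p was 0.374 for Mpnd, 0.309 for Sh3gl1, 0.229 for Mydgf and 0.285 for Hdgfrp2. Among the increases Lrg1 also lost its call in at least 1 alternative (0.0756). By the main fit, the increase around Plin4 did not extend over the flank.

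**Figure D5:**
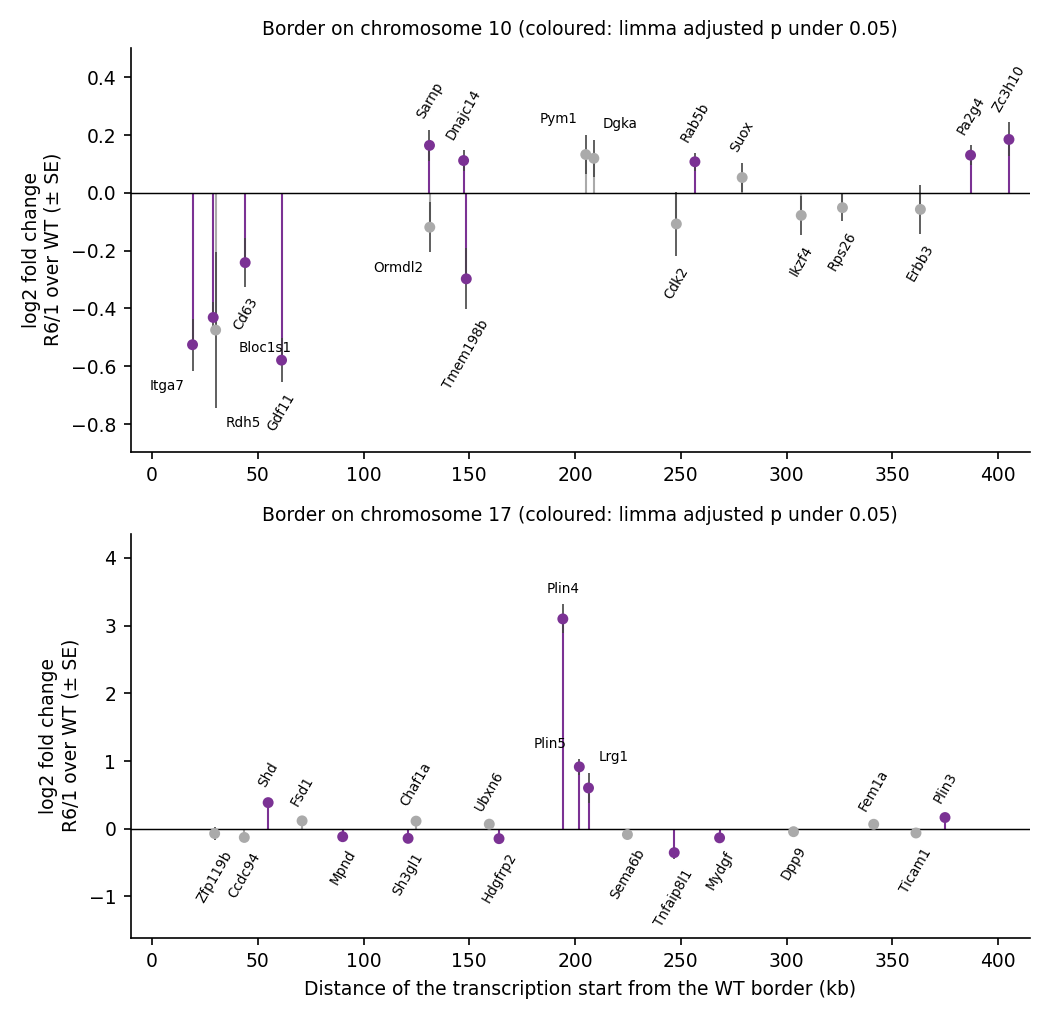
Log2 fold change (R6/1 over WT; bars are SE of the limma fit) of the 19 tested flank genes at each of the 2 named borders, by distance of the start from the border; purple marks limma adjusted p under 0.05. At the chromosome 10 border the 5 nearest genes lie below 0; at the chromosome 17 border Plin4, Plin5 and Lrg1 stand above their neighbours. The vertical scales differ.

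Gene families were unevenly spread between flank and domain. Over all families 5.14% of matched autosomal genes lay in flanks. Of 1101 Olfr genes 11 (0.999%) lay in flanks at 4 borders, 221 in the margin, 651 deeper in domains and 187 in distant sequence. Of 330 Vmn genes 2 lay in the flank, 44 in the margin, 144 deeper in domains and 100 in distant sequence. Of 98 genes of cytosolic ribosomal proteins (Rpl and Rps) 7 (7.14%) lay in flanks, at 6 borders, and 0 in the margin; all 7 were tested and 0 called, with 26 higher and 4 lower of the 90 tested members overall. Numbered zinc-finger genes (Zfp) contributed 23 of 369 (6.23%), 5 higher and 3 lower of 22 tested, where the whole family had 89 higher and 29 lower of 336 tested. Solute carriers (Slc) contributed 19 of 358 (5.31%), 3 higher and 6 lower of 13 tested, beside 50 and 67 of 247 in the whole family. Potassium channel subunits (Kcn) contributed 4 of 92, 1 higher and 3 lower, beside 4 higher and 37 lower of 73 tested in the whole family. No gene of the Hox, Gabr (GABA-A receptor) or Eph and Efn (ephrin) families started in a flank, of 41, 16 and 20 genes. The same held for 102 Krt, 63 Serpin and 42 Defb genes, of which 81, 48 and 39 lay in distant sequence. Whether these absences differ from the share of 5.14% was not tested.

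Cell type markers were read because the tissue is a mixture. All 10 dentate granule markers were called lower (summed level 122 to 184.7 RPKM in WT and 69.8 to 81.4 RPKM in R6/1), as were 4 of 6 CA1 markers (1 higher), 6 of 8 inhibitory neuron markers, 6 of 7 astrocyte markers (1 higher) and 6 of 8 oligodendrocyte markers. Of the activity-regulated genes 8 of 11 were lower; of all tested genes 23.5% were. Summed levels of the astrocyte markers ran from 862 to 1141 RPKM in WT and from 601 to 870 in R6/1, those of the oligodendrocyte markers from 1106 to 1420 and from 693 to 1170. Of the microglia markers 3 of 7 and of the endothelial markers 1 of 6 were lower, and 0 of 7 choroid plexus markers were called, although their sum ran from 26.0 to 1078 RPKM among WT libraries and from 39.1 to 1745 RPKM among R6/1 libraries. No marker was at 0 in all libraries. The part of these shifts in the flank results was not tested.

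Apart from Bok, 3 of these markers start in a flank. P2ry12, a purinergic receptor of microglia (chromosome 3, 59020193 to 59066753, minus strand), lay 22.2 kb from a kept border. It held 18.1, 21.9 and 23.8 RPKM in WT and 10.6, 14.2 and 23.2 in R6/1, with overlap (log2 fold change -0.52, SE 0.12; limma adjusted p 0.00116). Mog, a myelin protein of oligodendrocytes (chromosome 17, 37147691 to 37160343, minus strand, 61.7 kb from a drawn back border), held 32.7, 36.0 and 40.6 RPKM in WT and 23.3, 28.0 and 38.2 in R6/1, also with overlap (-0.28, SE 0.083; limma adjusted p 0.00808). Lhx6, a homeodomain factor of inhibitory neurons (chromosome 2, 35937470 to 35960928, minus strand), was at 4.88 ± 0.453 and 4.39 ± 0.445 RPKM and was not called (-0.14; limma adjusted p 0.0778); without WT replicate 6, its lowest WT library, it was called (-0.17; limma adjusted p 0.0164).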

How the data were processed

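Members, gene lists and tests were chosen with earlier results of these data known. The authors deposited RPKM for 24508 gene symbols in 18 RNA libraries, scaled by size factors; TopHat, DESeq2 and build mm9 are named in the submitters' processing notes, and counter and annotation are not given in the sources used here. The authors' deposited table of the comparison holds, per the file headers, a mean normalized count as a signal, log2 fold changes with standard errors, a test score and p-values. The deposited domain lists give 1 EDD score per domain for lamin B1 over input, with Bowtie named in the processing notes; how the 3 ChIP replicates were combined is not given in the sources used here, and the score was not used. Library totals were recovered from the RPKM with the mean normalized counts (tolerance 0.05 of a read).

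Symbols were matched to GENCODE genes on NCBIM37 (the same assembly as mm9) by name (20375) or RefSeq synonym (1721), 90.2% of the table; 148 symbols with several places were left out. Genes were placed by transcription start. Limma 3.58.1 (R 4.3.3; lmFit and eBayes with trend, two-sided) ran on log2(RPKM + 0.5) over genes averaging 0.5 RPKM or more, with Benjamini-Hochberg adjustment over all of them and a threshold of 0.05. Fold changes on this scale understate those of low genes. Shares and levels by step have no test. Tested on simulated data with 200 changed genes among 14446, the fit recovered 60% of changes of 0.3, 94% of 0.6, 96% of 1 and 98% of 2 on the log2 scale. In that run 5.43% of its calls were unchanged genes. The real comparison called 48.3% of genes, a far larger share than was simulated, so these rates need not hold for it.

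Genes named were the 8 largest increases and 8 largest decreases among flank genes that were called, averaged 1 RPKM or more and did not overlap between genotypes; in the step at the border the 5 highest levels and up to 3 changes each way; and listed cell type markers that start in a flank. Borders named were the 2 with most tested flank genes. ATAC-seq and ChIP reads were not analysed here. Some items that these rules name are not reported here.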

Additional observations from a re-analysis of the deposited data

Results flagged for a closer look

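In 62 groups of 9 libraries, of which 52 were the 26 named genes in each genotype and 10 were summary measures of flank expression, a lone library stood apart from the others in 5, where chance gives about 3.1 (1 in 20). Bag2 was at 5.55 RPKM in WT replicate 1, with the next WT library at 4.67. Tmem192 was at 12.2 RPKM in R6/1 replicate 5, the next lowest at 15.0, and Idi1 was at 12.5 RPKM in the same library, the next highest at 10.7. Eif3f was at 93.8 RPKM in WT replicate 2, the next at 76.4. Lhx6 was at 3.87 RPKM in WT replicate 6, the next lowest at 4.69. Of these genes Lhx6 changed its side of the threshold when that library was left out.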

How the results depend on the processing

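Counts of flank genes called higher (191) and lower (179) stayed within 1.5 times of these values under pseudocounts of 0.1 and 1, no filter or a mean of at least 2 RPKM, quantile normalization, the authors' deposited table, 10 steps in place of 11, R6/1 borders, protein-coding genes and gene middles. Own totals of reads gave 291 higher; the flank narrowed to 6 steps gave 107 higher and 98 lower, and kept borders alone 41 and 38, both over fewer genes. Leaving out each library in turn gave 179 to 195 higher, 166 to 183 lower and medians of 0.011 to 0.020. The median log2 fold change (0.017) was 0 with no filter, 0.081 with own totals, 0.041 with quantile normalization, 0.0047 in the authors' deposited table and 0.041 at kept borders; the median of all genes moved too, to 0, 0.069 and 0.032 in the first 3 of these and to -0.013 in the deposited table, and the cause was not tested.

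The WT share at 0.5 RPKM or more, taken on gene means (71.4%), was 76.5% at kept borders, 74.2% for protein-coding genes and 72.1% without Olfr and Vmn genes, and 65.6% of genes reached 1 RPKM. The difference between the step at the border and the last step (0.19) was 0.38 with 6 steps, -0.38 from R6/1 borders, 0.12 at kept borders, 0.12 for protein-coding genes, -0.11 by gene middles, 0.27 and 0.16 with pseudocounts of 0.1 and 1, 0.48 with medians and 0.14 without Olfr and Vmn genes; it is no stable slope, and the cause was not tested.

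Of 674 refits of 26 named genes, 662 kept direction and side of the threshold and 9 (Rps23, Rap1gds1, Lhx6) passed it only there. The 3 that changed sign were Rps29, at 0.055 with own totals, 0.14 with quantile normalization and 0.0088 without R6/1 replicate 7 (range over left-out libraries -0.036 to 0.0088). Replicate numbers did not pair the libraries: 3 of 9 same-numbered pairs had deviations correlated above 0.1 (range -0.053 to 0.237), and 2 of 9 correlated best with their own number. With the replicate block 198 flank genes were higher and 192 lower. Depth limits what can be said of genes under 0.5 RPKM, which include 305 flank genes.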
